A study of Mus musculus with 2 samples.

Results

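The genes described here encode 8 components of the dystrophin-glycoprotein complex, or a relative of one: Dmd, Utrn, Dag1, Sgca, Sgcb, Sgcd, Dtna and Sspn. They were taken by gene symbol, and all 8 were found among the 55536 genes of the tables. The study measured total RNA in the heart of 2 female mice aged 25 days, of B6CASTF1/J, a hybrid between an inbred laboratory strain and a strain derived from wild mice. By their labels both are biological replicates, numbered 2 and 1, in 1 group, and each library took 300 ng of RNA plus ERCC spike-ins. No genotype, treatment or second age was compared, so the values describe gene levels at this age and how far 2 libraries differ. Their donor label is shared while the animal numbers differ; every SD assumes that they are 2 animals.

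The complex spans the muscle cell membrane. Dystrophin binds actin filaments inside the cell and β-dystroglycan in the membrane; α-dystroglycan, cut from the same precursor, carries sugar chains that bind laminin outside the cell. The sarcoglycans and sarcospan sit beside dystroglycan, and dystrobrevin and the syntrophins bind dystrophin on the inner face. In humans, loss of dystrophin causes Duchenne muscular dystrophy and loss of a sarcoglycan causes a limb-girdle muscular dystrophy, and the heart can be affected in both.

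Levels are given in TPM, transcript abundance per unit length scaled to a fixed total per library, and come from the gene tables made from alignments unless the read-based transcript tables, a second quantification of the same libraries, are named. The alignment-based counts, spike-ins included, summed to 42954475 (replicate 2) and 43190646 (replicate 1). All 7 cardiomyocyte marker genes were detected, which means that each animal had at least 1 TPM; their summed level was 29292 TPM in replicate 2 and 27981 in replicate 1, led by Myh6, the adult cardiac myosin heavy chain, at 9899 and 9386 TPM. Of 9 fast skeletal muscle markers 2 were detected, Acta1 and Tnni2; Acta1, a skeletal actin that heart also expresses, held most of the sum of 161.22 TPM in replicate 2 and 202.02 in replicate 1, and the fast myosin genes Myh1 and Myh4 were listed at 0. In a whole tissue, fewer cells of a type and less RNA per cell cannot be told apart.

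All 8 genes were detected, and their levels lay within a narrow band apart from Dag1. The median of the 8 genes was 35.5 TPM in replicate 2 and 39.0 in replicate 1, a mean of 37.2 ± 2.50 TPM (SD, n = 2). The 10972 detected nuclear protein-coding genes had a median of 8.81 ± 0.42 TPM. From high to low the mean order was Dag1, Sspn, Sgca, Dmd, Sgcb, Dtna, Sgcd and Utrn, and the order was the same in each animal. Among neighbours in this order, the 2 animals' values overlapped only for Dmd and Sgcb, and the deposited credibility intervals overlapped in both animals only for Sspn and Sgca. In 1 animal they also overlapped for Dmd and Sgcb, Sgcb and Dtna, Dtna and Sgcd, and Sgcd and Utrn. The read-based order differed at 1 place, with Sgcd above Dtna. These intervals cover the assignment and counting of reads, at a level the headers do not state, and not the difference between animals.

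**Figure D1:**
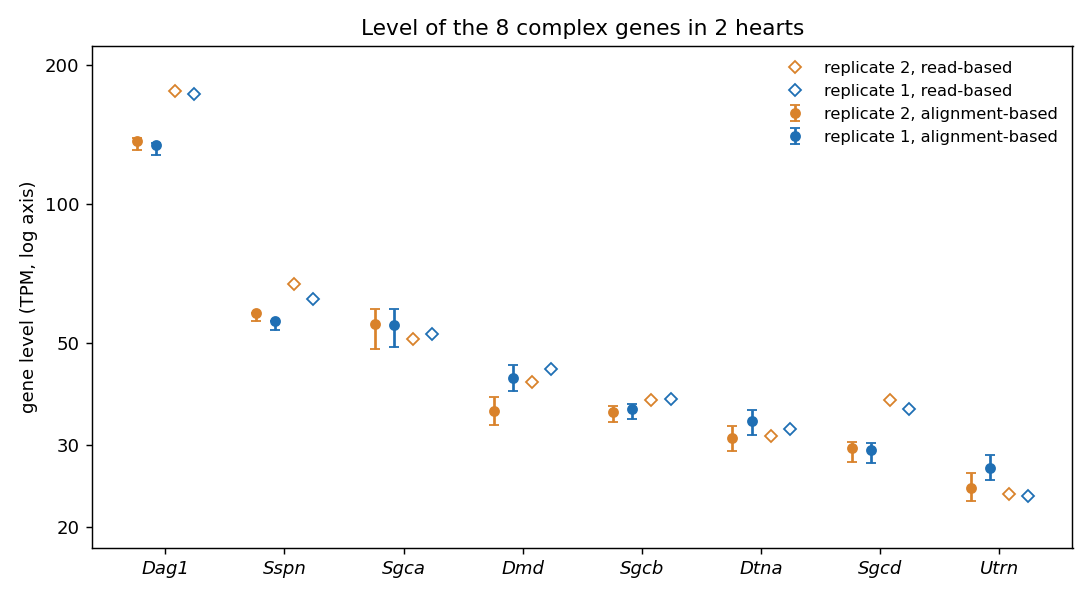
Level of each of the 8 genes in TPM on a log axis, from the highest mean to the lowest; filled circles are alignment-based values with their deposited credibility intervals, open diamonds read-based values, each with replicate 2 left of replicate 1. Dag1 stands above the other 7 genes in every set of values, and Utrn is the lowest.

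Dmd encodes dystrophin, and its gene runs over 2257 kb of the X chromosome (ENSMUSG00000045103.17, chrX:82948870-85206141 of mm10, plus strand). Its level was 35.6 TPM in replicate 2 and 42.1 in replicate 1, with credibility intervals of 33.1 to 38.2 TPM and 39.2 to 44.9 TPM. It was the only 1 of the 8 genes with separate intervals, as were 11.5% of all genes tested. The reads assigned to the gene numbered 12203 in replicate 2 and 12551 in replicate 1, a ratio of 0.999 after TMM scaling (exact 95% interval 0.974 to 1.02). With spike-in totals the ratio was 0.932 (0.909 to 0.955; exact binomial test, adjusted p = 3.99e-07). By TPM the animals differed more in the noncoding than in the coding models. The 3 coding models summed to 22.8 TPM in replicate 2 and 23.2 in replicate 1, and the 11 noncoding models to 12.7 and 18.9 TPM. The read-based tables gave 27.3 TPM in both replicates for the coding models, and 13.8 TPM in replicate 2 and 16.6 in replicate 1 for the noncoding models.

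The full-length transcript led in both hearts. Dmd-203, with 79 exons and 3678 codons, held 60.8% of the gene's TPM in replicate 2 and 53.8% in replicate 1; by counts it held 91.6% and 90.2%. The next in TPM were noncoding models shorter than the full transcript, each holding a smaller share of the gene's counts than of its TPM. Dmd-212, a retained-intron model of 17 exons, held 18.9% of TPM in replicate 2 and 19.4% in replicate 1, but 0.42% and 1.03% in the read-based tables. By alignment-based counts it held 5.69% in replicate 2 and 6.50% in replicate 1. Dmd-210, a processed transcript of 868 bases whose end is not annotated, held 7.50% in replicate 2 and 11.9% in replicate 1, and 27.6% and 30.9% read-based. Dmd-204, a processed transcript of 596 bases, held 3.92% and 6.44%, and was at 0 read-based. The 2 quantifications thus placed the noncoding signal on different models, while both kept the coding sum nearly equal between the animals.

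The gene also has a start far inside it, which gives the short protein Dp71, made in many tissues. Dmd-202, with 17 exons and 604 codons, starts 2100 kb downstream of Dmd-203. It had 1.21 TPM in replicate 2 and 0.55 in replicate 1, with overlapping intervals of 0.45 to 2.03 and 0.15 to 1.13 TPM. Dmd-201, a relative of 617 codons from the same start, was listed at 0 in both quantifications. The 5 models that start within 1000 bases of Dmd-202, noncoding ones included, held 5.54% of the gene's TPM in replicate 2 and 5.23% in replicate 1, but 0.92% and 0.91% of its counts.

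The 250 bases before RefSeq's upstream and internal start of Dmd, on GRCm38.p6, are shown because they lie by the starts of the full-length and the short forms. RefSeq's starts, at 82948870 and 85048295, are those of the low retained-intron models Dmd-205 and Dmd-206; Dmd-203 starts a little further on, at 82948903, and Dmd-202 at 85048413. Capitals mark matches to any of 5 motifs, searched on both strands: the TATA box, the GC box, the E box, the MCAT element and the CArG box. The first lies at chrX:82948620-82948869 and the second at chrX:85048045-85048294, both on the plus strand.
Dmd upstream start: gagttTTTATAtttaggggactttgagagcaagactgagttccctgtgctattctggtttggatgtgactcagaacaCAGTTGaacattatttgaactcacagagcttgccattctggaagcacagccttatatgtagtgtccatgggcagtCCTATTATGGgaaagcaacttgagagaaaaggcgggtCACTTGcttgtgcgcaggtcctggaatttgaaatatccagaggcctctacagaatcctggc
Dmd internal start: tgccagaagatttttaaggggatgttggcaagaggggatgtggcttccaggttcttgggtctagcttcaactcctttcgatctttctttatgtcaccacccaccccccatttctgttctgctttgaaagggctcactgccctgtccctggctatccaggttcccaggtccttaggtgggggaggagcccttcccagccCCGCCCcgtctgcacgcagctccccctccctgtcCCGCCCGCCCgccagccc
The window before the upstream start held 1 match to the TATA box, written TATAAA here and far from the start, 2 E boxes and 1 CArG box, and its GC content was 45.2%, against a median of 52.4% over 32851 RefSeq promoter windows. Of those windows 12.4% hold a TATA box match, 66.2% an E box, spelled CANNTG, and 1.47% a CArG box. The window before the internal start held 3 GC boxes, each GGGCGG on the other strand, of which 2 overlap, and no match to the other motifs, with a GC content of 60%; 32.7% of all windows hold a GC box. No match to MCAT, searched as CATTCC, was found in either, and 12.6% of all windows hold one. These are matches of letters and not measured binding sites.

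Utrn encodes utrophin, a close relative of dystrophin that lies at the neuromuscular junction in adult skeletal muscle and can bind the same partners (ENSMUSG00000019820.11, chr10:12382188-12869365, minus strand). It was the lowest of the 8 genes, at 24.3 TPM in replicate 2 and 26.7 in replicate 1, with overlapping intervals of 22.7 to 26.1 and 25.2 to 28.6 TPM. On the scale of log2(TPM + 0.1), Utrn over Dmd was -0.55 in replicate 2 and -0.65 in replicate 1, a mean of -0.60 ± 0.07 (SD, n = 2). Utrn was therefore lower than Dmd in both animals, and in the read-based tables the mean was -0.86. The size of the gap depended on which models were counted: over models with a complete coding sequence it was -0.48 ± 0.09, and -0.60 read-based. With incomplete coding models added it was -0.013 in replicate 2 and 0.090 in replicate 1, with a mean of 0.039 ± 0.07. The direction thus differed between the animals there. Read-based, the coding models summed to 22.7 TPM for Utrn in replicate 2 and 21.6 in replicate 1, against 27.3 for Dmd in both. All 3 coding models of Dmd are complete, so this step added models of Utrn only.

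The utrophin signal was spread over more models than the dystrophin signal. Utrn-201 and Utrn-205 both encode 3430 codons, the full protein, with 74 and 75 exons. Utrn-201 held 38.5% of the gene's TPM in replicate 2 and 38.9% in replicate 1, and 62.0% and 60.8% of its counts. Utrn-205 held 15.2% of TPM in replicate 2 and 17.4% in replicate 1. Utrn-202, an incomplete coding model that starts 48.1 kb downstream of Utrn-201, held 10.5% in replicate 2 and 13.8% in replicate 1, and was listed at 0 read-based. Utrn-212, also incomplete, held 11.2% and 7.87%, and Utrn-206, a complete model of 956 codons, 7.49% and 8.15%. Utrn-207, an incomplete model of 660 bases, held 7.02% in replicate 2 and 5.68% in replicate 1; read-based it held 12.9% in replicate 2 and close to 0 in replicate 1, the widest gap between the animals of any Utrn model.

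**Figure D2:**
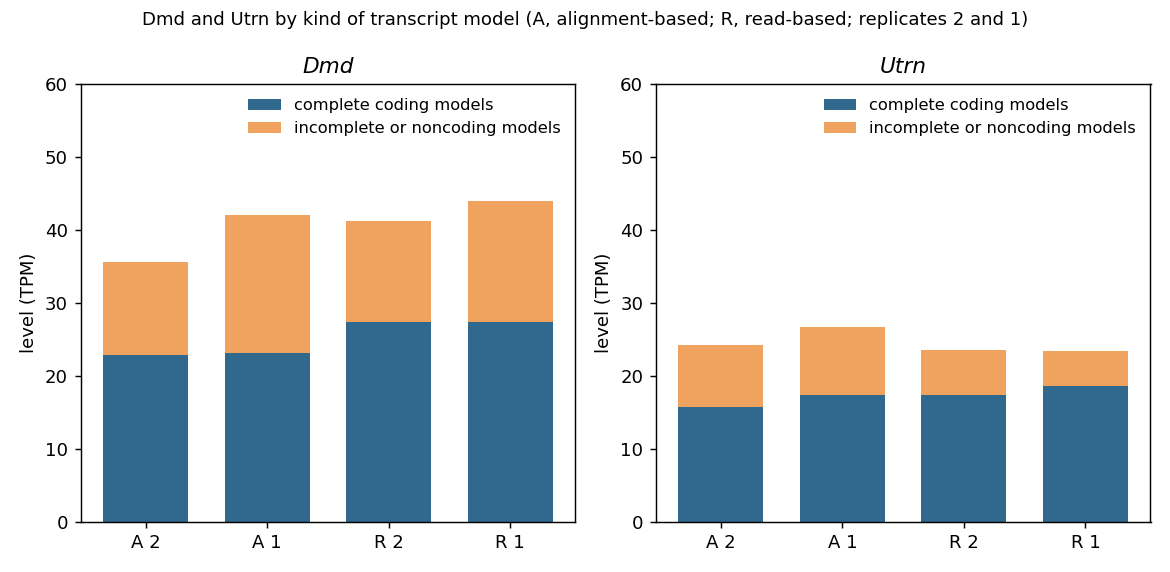
Level in TPM of models with a complete coding sequence (blue) and of incomplete or noncoding models (orange), stacked, for Dmd (left) and Utrn (right); A marks alignment-based and R read-based values, each with replicate 2 before replicate 1. The blue Dmd bars are nearly level between the animals, at 22.8 and 23.2 TPM alignment-based, and the orange part differs.

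Dag1 encodes the precursor of both dystroglycans, the membrane core of the complex and its laminin receptor (ENSMUSG00000039952.15, chr9:108204634-108263958, minus strand). Its level of 137 TPM in replicate 2 and 134 in replicate 1 was the highest of the 8 genes, 1.81 ± 0.19 above Dmd on the log2(TPM + 0.1) scale, and higher than 96.3% of detected protein-coding genes. Read-based values were higher, at 175 TPM in replicate 2 and 173 in replicate 1. The 4 models with a complete coding sequence all encode 893 codons. Together they held 81.5% of the TPM in replicate 2 and 86.2% in replicate 1, and 98.3% and 98.8% of the counts. The longest of them, ENSMUST00000191899.5, led at 57.4% of TPM in replicate 2 and 61.8% in replicate 1. ENSMUST00000080435.8 followed at 12.8% and 13.7% but was at or near 0 read-based, while ENSMUST00000171412.6 stood at 11.0% and 10.3%, and at 25.1% and 25.4% read-based. The incomplete models ENSMUST00000194698.1 and ENSMUST00000195429.5, of 472 and 509 bases, held 9.92% and 8.25% of TPM in replicate 2 and 8.05% and 5.14% in replicate 1. Together that was 18.2% of TPM in replicate 2 and 13.2% in replicate 1, with 1.65% and 1.13% of the counts; read-based these models held 27.9% and 25.9% of TPM.

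The 3 sarcoglycan genes ranged from 29.5 TPM for Sgcd to 54.8 TPM for Sgca in replicate 2. None passed the test between the animals (exact binomial test, adjusted p of 0.95 for Sgca, 0.163 for Sgcb and 0.433 for Sgcd). Of all genes tested, 20.3% passed it. Sgca, α-sarcoglycan, had 54.8 TPM in replicate 2 and 54.7 in replicate 1 (ENSMUSG00000001508.15, chr11:94962791-94976327, minus strand). Sgcb, β-sarcoglycan, had 35.4 TPM in replicate 2 and 36.0 in replicate 1 (ENSMUSG00000029156.11, chr5:73632749-73647790, minus strand). Sgcd, δ-sarcoglycan, had 29.5 TPM in replicate 2 and 29.4 in replicate 1, from a gene of 1093 kb (ENSMUSG00000020354.15, chr11:46896253-47988969, minus strand). These proteins are parts of the sarcoglycan subcomplex of striated muscle. On the log2(TPM + 0.1) scale Sgca was 0.62 ± 0.02 above Sgcb and 0.89 ± 0.0024 above Sgcd (SD, n = 2). Read-based, these differences were smaller, at 0.45 and 0.49, with Sgcd at 37.6 TPM in replicate 2 and 36.0 in replicate 1.

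Sgcb and Sgcd each had a single dominant transcript. Sgcb-201, of 320 codons, held 98.0% of the gene's TPM in replicate 2 and 98.2% in replicate 1, and Sgcd-201, of 289 codons, held 97.7% and 96.9%. Sgca was divided: Sgca-202 held 45.3% in replicate 2 and 49.7% in replicate 1, Sgca-201 22.5% and 24.2%, the incomplete Sgca-204 22.3% and 20.3%, and the incomplete Sgca-203 9.92% and 5.89%. Read-based, Sgca-202 alone held 92.2% in replicate 2 and 92.7% in replicate 1, and Sgca-201 and Sgca-204 were at 0. Sgca-201 and Sgca-202 encode the same number of codons, 387.

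Sspn encodes sarcospan, a small protein with several membrane spans that binds the sarcoglycans (ENSMUSG00000030255.13, chr6:145931641-145965223, plus strand). Its level was 58.0 TPM in replicate 2 and 55.7 in replicate 1, with intervals of 55.7 to 58.1 and 53.4 to 55.8 TPM that barely overlap. Sspn was the 1 gene of the 8 whose leading transcript depended on the quantification. Sspn-201, of 216 codons, held 99.8% of the TPM in both replicates from alignments, but 22.4% in replicate 2 and 11.9% in replicate 1 read-based. Sspn-203, of 140 codons, was listed at 0 in both replicates from alignments, with intervals reaching up to 0.79 TPM in replicate 2 and 0.50 in replicate 1, but held 77.1% and 87.1% read-based. The 2 transcripts share 4181 exon bases, and 250 bases are found only in Sspn-201 and 234 only in Sspn-203, so reads from the shared bases match both. These tables do not settle which of them the hearts made.

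The difference bears on the protein, and the first coding stretch of each transcript is shown for that reason, from the GENCODE M21 transcripts on GRCm38, with the start codon in capitals. That of Sspn-201 lies at chr6:145934174-145934371 and that of Sspn-203 at chr6:145955625-145955681, both on the plus strand.
Sspn-201: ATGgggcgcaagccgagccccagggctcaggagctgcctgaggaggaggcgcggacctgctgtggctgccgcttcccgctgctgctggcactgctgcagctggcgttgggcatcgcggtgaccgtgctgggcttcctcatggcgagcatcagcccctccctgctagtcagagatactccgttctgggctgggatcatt
Sspn-203: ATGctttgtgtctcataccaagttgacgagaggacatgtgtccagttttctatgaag
The 140 codons of Sspn-203 are the last 140 of Sspn-201, in the same frame; the longer form has 76 codons before them.

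Dtna encodes α-dystrobrevin, which binds dystrophin and the syntrophins (ENSMUSG00000024302.16, chr18:23415135-23659715, plus strand). It had 31.1 TPM in replicate 2 and 33.9 in replicate 1, with overlapping intervals of 29.1 to 33.0 and 31.6 to 35.7 TPM. Its complete coding models differ in length, and 4 of them held at least 5% of the gene's TPM. Dtna-201, the shortest complete form at 371 codons, held 46.0% of the TPM in replicate 2 and 44.7% in replicate 1. Dtna-206, of 567 codons, held 29.2% and 27.2%, and led by counts with 48.3% in replicate 2 and 45.0% in replicate 1, against 25.9% and 25.2% for the shorter Dtna-201. The long forms were lower: Dtna-203, of 746 codons, held 7.89% and 7.78% of TPM, and Dtna-202, of 682 codons, 5.24% and 6.70%. Dtna-208, an incomplete model, held 6.22% and 4.68% and was at 0 read-based. Both quantifications gave Dtna-201 and Dtna-206 as the first and second by TPM, with read-based shares of 47.3% in both replicates for Dtna-201, and 32.8% and 32.1% for Dtna-206.

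**Figure D3:**
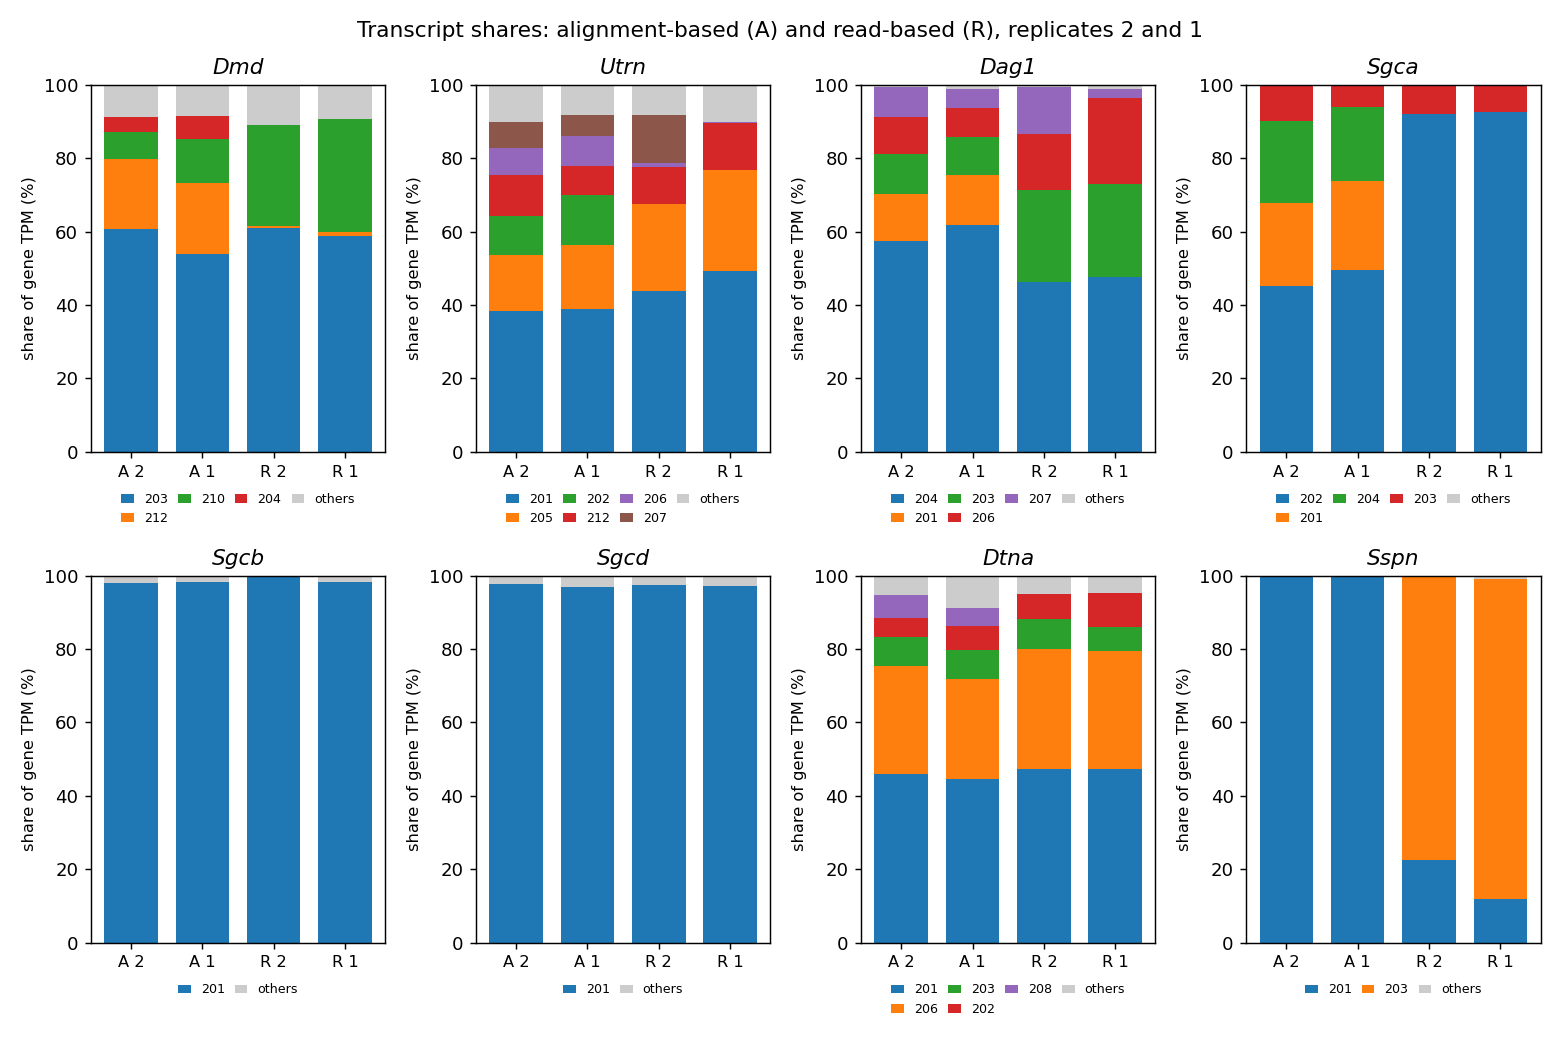
Share of each gene's TPM (%) held by its transcripts in 8 panels, 1 per gene; A marks alignment-based and R read-based shares, each with replicate 2 before replicate 1, colours mark transcripts with a mean share of at least 5% in either quantification and grey the others. The leading transcript is the same by both quantifications in 7 of 8 genes, and Sspn is the exception.

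Between the 2 animals none of the 8 genes met the full rule for a difference, an adjusted p under 0.05, a ratio of at least 2 and separate credibility intervals, which 0.821% of 15839 genes met (130 genes). By the exact binomial test alone, adjusted over all 15839 genes (Benjamini-Hochberg) and at any ratio, 3 of 8 passed, against 20.3% of all genes. These p-values compare the reads of 2 libraries, cover counting error only and treat reads as independent molecules. At higher counts the test passes smaller ratios. The 8 genes averaged from 1598.5 counts (Sgcd) to 20569 (Dag1), while all genes averaging 10 or more were tested. The shares of genes passing are therefore not matched for counts. The median log2 ratio of replicate 2 over replicate 1 was 0.03 for the 8 genes and 0.00064 for all genes tested. Of the 8 genes 5 were higher in replicate 2 and 3 lower at any p, against 50.2% and 49.8% of all genes. The median size of the log2 ratio regardless of sign was 0.05 for the 8 genes, against 0.14 for all genes and 0.08 for the 4477 genes whose counts averaged 1000 or more.

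Sspn was higher in replicate 2, with 8765 counts in replicate 2 and 8149 in replicate 1 (ratio 1.10, 1.07 to 1.14; exact binomial test, adjusted p = 2.59e-09). Dag1 was higher in replicate 2 by a small margin, with 20596 and 20542 counts (ratio 1.03, 1.01 to 1.05; exact binomial test, adjusted p = 0.0184). Utrn was lower in replicate 2, with 6453 counts in replicate 2 and 7091 in replicate 1 (ratio 0.935, 0.904 to 0.967; exact binomial test, adjusted p = 0.00087). Thus 2 of 8 genes were higher in replicate 2, against 9.42% of all genes, and 1 of 8 was lower, against 10.9%. The Dag1 call did not hold with DESeq2 size factors (exact binomial test, adjusted p = 0.109) or total counts (0.641). With spike-in scaling Dag1 turned and passed as lower in replicate 2, at -0.058 on the log2 scale (exact binomial test, adjusted p = 0.000416). Spike-in scaling shifted every log2 ratio by -0.10; Sspn then stood at 0.044 (adjusted p = 0.14, exact binomial test).

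Cell markers moved between the same 2 libraries. All 7 cardiomyocyte markers were higher in replicate 2 by counts in the exact binomial test, but by TPM Actn2 (719 in replicate 2 and 732 in replicate 1) and Ryr2 (379.5 and 392) were lower. The count log2 ratios of Actn2 and Ryr2, 0.085 and 0.084, are smaller than the shift of -0.10 that spike-in scaling brings. Of 7 endothelial markers 5 passed the exact binomial test as lower in replicate 2 (sum 234 TPM in replicate 2 and 282 in replicate 1). So did 4 of 7 vascular smooth muscle and pericyte markers (259 and 338 TPM) and 3 of 6 fibroblast markers (312 and 365 TPM). Of all genes tested, 10.9% passed as lower and 9.42% as higher in replicate 2. At any p, 6 endothelial, 5 smooth muscle and pericyte and 5 fibroblast markers had a count ratio lower in replicate 2. All markers of these lists were detected. None of the 6 Schwann cell markers (2 detected, sums 4.09 and 4.84 TPM) and none of the 5 neuron markers (1 detected, 2.09 and 2.68 TPM) passed. All 6 liver markers were higher in replicate 2 (26.7 TPM in replicate 2 and 2.83 in replicate 1), with Apob and Serpina1a listed at 0 TPM in replicate 1. The part of these cell types in the Sspn, Dag1 and Utrn differences was not tested.

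**Figure D4:**
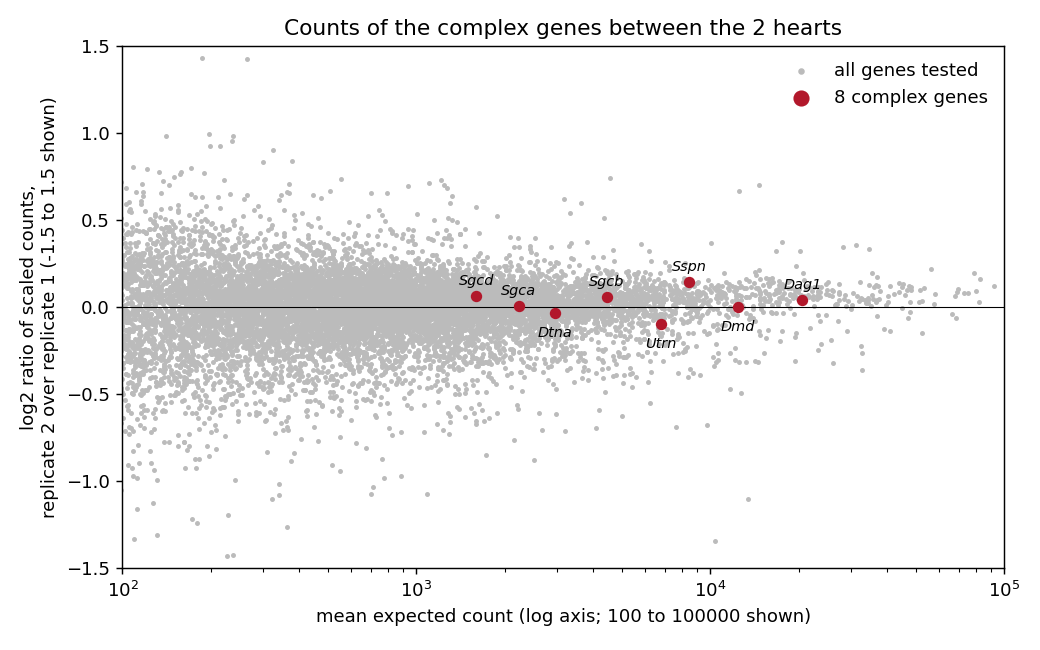
Log2 ratio of scaled counts, replicate 2 over replicate 1, against the mean expected count on a log axis; grey points are the genes tested within the axes and red points the 8 complex genes. The red points lie close to 0, between -0.10 for Utrn and 0.14 for Sspn.

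Few reads were assigned to genes that overlap the 8. Among 15 annotated genes that overlap one of the 8, the highest count was 20, for Gm43931 inside Sspn, which had 13 counts in replicate 2 and 20 in replicate 1. Sspnos, antisense to Sspn, had 7 and 6 counts. No source used here gives the strand setting of the counting, and how many reads of overlapping genes were assigned to the 8 was not tested.

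The 8 other subunits and relatives reported here lay below every one of the 8 complex genes. Sgce, ε-sarcoglycan, a relative of Sgca found in many tissues, stood at 7.96 and 8.74 TPM in replicates 2 and 1, so that Sgca was 2.70 ± 0.10 above it on the log2(TPM + 0.1) scale. Sntb1, β1-syntrophin, an adaptor of the complex, stood at 8.46 and 8.09 TPM, and its relative Sntb2 at 4.57 and 4.95 TPM. Dtnb, β-dystrobrevin, had 1.49 TPM in replicate 2 and 2.07 in replicate 1; Dtna was 4.13 ± 0.23 above it, and 3.56 read-based. Sntg2, Sntg1, Drp2 and Sgcz stood between 0.01 and 0.12 TPM. Of these 8 genes 4 had counts enough to be tested. None passed (exact binomial test, adjusted p from 0.381 for Sntb2 to 0.861 for Sntb1), against 20.3% of all genes tested.

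The enzymes that build the laminin-binding sugars of α-dystroglycan were expressed at low to moderate levels. Detection reached 17 of 18 such genes, and the list's median was 8.53 ± 0.69 TPM. The highest were Dpm1 and Dpm3, subunits of the enzyme that makes the mannose donor, at 26.8 and 20.8 TPM in replicate 2 and 23.8 and 19.9 TPM in replicate 1, and Pomgnt1, which extends the mannose, at 23.7 TPM in replicate 2 and 23.8 in replicate 1. Of the 17 tested, 1 was higher in replicate 2 and none lower, against 9.42% and 10.9% of all genes tested.

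Of 16 genes for matrix ligands 13 were detected, and the median of all 16 was 25.6 ± 1.84 TPM. Lamb2, the laminin β2 chain, had 143 TPM in replicate 2 and 139 in replicate 1; Hspg2, perlecan, at 98.3 and 114 TPM; and Bgn, biglycan, at 70.8 and 86.3 TPM. By the exact binomial test 9 of 16 ligand genes were lower in replicate 2 and 1, Lamb2, was higher, against 10.9% and 9.42% of all genes tested, with a median log2 ratio of -0.14, whereas the 8 complex genes stood at 0.03. Most fibroblast, endothelial, smooth muscle and pericyte markers given above were lower in replicate 2 as well, and their part in this was not tested.

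On the inner face, 15 of 17 partner genes passed 1 TPM in both animals; the list's median was 42.1 ± 3.13 TPM. Des, desmin, the muscle intermediate filament, had 491 TPM in replicate 2 and 485 in replicate 1; Actb, the cytoplasmic actin that dystrophin can bind, at 296 and 364 TPM; and Ank2, an ankyrin, at 124 and 130 TPM. In each direction 4 of the 17 passed, against 9.42% of all genes tested for higher in replicate 2 and 10.9% for lower. Of 10 genes for membrane repair and for integrin α7β1, the second laminin receptor of muscle, 9 were detected, and the median of all 10 was 56.4 ± 0.50 TPM. Itgb1, integrin β1, had 146 TPM in replicate 2 and 159 in replicate 1, Trim72, which acts in membrane repair, at 128 and 125 TPM, and Anxa6, an annexin, at 92.5 and 94.5 TPM. Of the 9 tested, 2 were higher and 3 lower in replicate 2, against the same 9.42% and 10.9% of all genes tested. No gene of these 5 partner lists met the full rule for a difference, which 0.821% of all genes tested met.

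**Figure D5:**
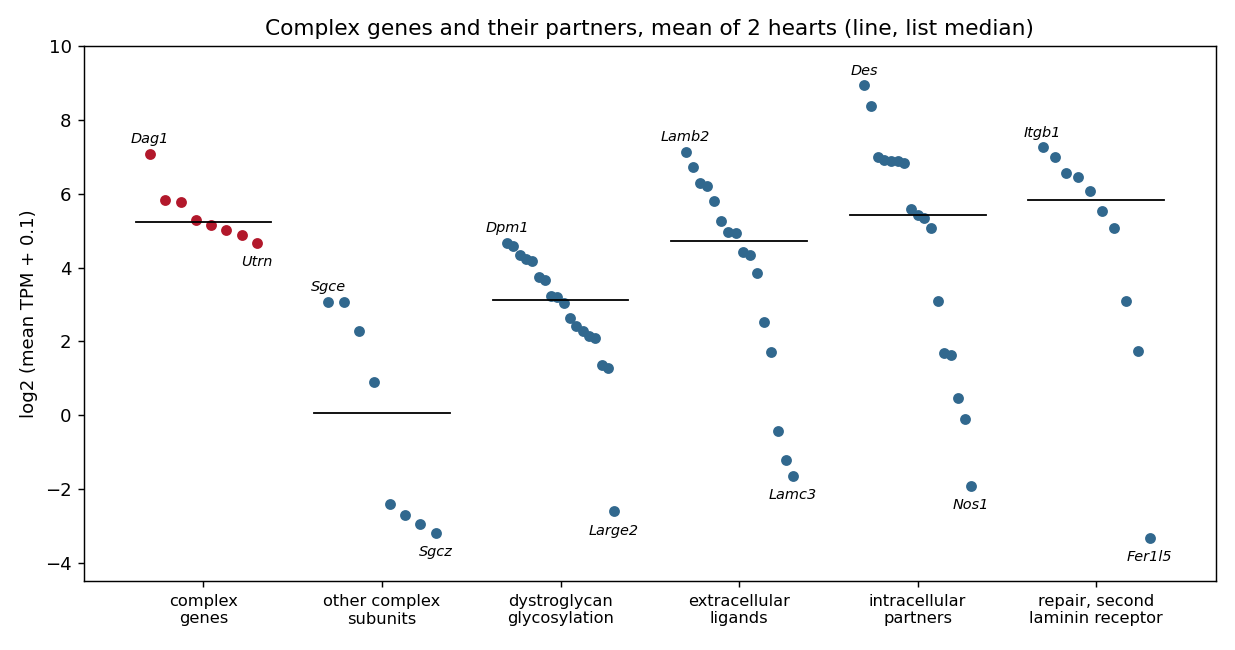
Mean level of each gene, as log2(mean TPM + 0.1), in the 8 complex genes (red) and in 5 lists of partner genes (blue), with a line at each list's median and the highest and lowest gene named. The complex genes span Dag1 to Utrn without a gene at a trace level, whereas the other subunits shown reach down to Sgcz.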

How the data were processed

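Total RNA of 2 hearts was measured, with 1 gene table and 2 transcript tables per library, on mm10 with GENCODE M21 per the deposited listings. No source used here names the tools. The deposited expected counts (from alignments) and estimated counts (from reads) give, per the file headers, the reads assigned to a feature, before any normalization. TPM values come from the authors and cover every entry of a table, spike-ins among them. The score columns are the deposited lower and upper bounds of TPM credibility intervals, at a level not stated. The percent column, deposited with the alignment-based transcripts, is a transcript's share of its gene's TPM. Gene TPM divides counts by a length that depends on the mix of transcripts.

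Read-based values were summed to genes, and ratios of TPM used a pseudocount of 0.1. Counts were rounded and scaled by TMM (edgeR 4.0.16, R 4.3.3). For each of 15839 genes averaging 10 counts or more, the 2 libraries were set against each other by an exact binomial test, two-sided and adjusted after Benjamini and Hochberg. A difference needed an adjusted p under 0.05, a 2-fold ratio, and TPM intervals that do not touch. The test and the ratio threshold, without the intervals, were tried on simulated counts that carried counting error only. With 1 group of 2 animals no test over animals was possible, and intervals cover counting error only. Other steps ran in pandas 2.3.3, scipy 1.17.1 and numpy 2.4.6 under Python 3.11.15, with figures from matplotlib 3.10.9.

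The 8 genes, 5 partner lists and 8 marker lists were chosen with earlier results of these data known. Named were the 8 genes, their transcripts at a mean share of at least 5% in either quantification, the other complex subunits and genes of the ratios, and the 3 highest genes and any called gene of each partner list; markers are given by their sums. Dmd-201, Dmd-202, Dmd-205, Dmd-206, Myh6, Actn2, Ryr2, the markers of fast muscle and liver named, and genes overlapping Sspn were named after their values were seen. No gene was named for likeness of pattern, since 2 samples of 1 group give none. Some subunits of the complex are not reported here, and their list and figure leave them out. Alternatives tried were the read-based tables, posterior means, rescaling to protein-coding nuclear genes, size factors of DESeq2 (1.42.0), totals of counts or of spike-ins, changed filters, ratios and pseudocounts, and leaving out each replicate.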

Additional observations from a re-analysis of the deposited data

How the results depend on the processing

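The median level of the 8 genes, 37.2 TPM, was 40.1 TPM read-based and 95.5 TPM when TPM was rescaled to protein-coding nuclear genes. It was 35.5 to 39.0 TPM with 1 replicate left out. Genes meeting the full rule between the libraries numbered 130 (47 higher and 83 lower in replicate 2), 292 (120 and 172) without the credibility intervals, 1388 (285 and 1103) with no minimum ratio and 320 (91 and 229) with a minimum ratio of 1.5; 0 of 8 complex genes met it under any of the alternatives. Utrn over Dmd, -0.60 on the log2 scale, was -0.86 read-based, and ranged from -0.65 to -0.55 with 1 replicate left out. Alternatives added after seeing the data gave -0.48 over complete coding models and 0.039 over all coding models. The latter was -0.013 in replicate 2 and 0.090 in replicate 1, so its sign differed between the animals. The models counted differ by construction. Both quantifications named 1 leading transcript in 7 of 8 genes, also with either replicate left out. The log2 ratio of Dmd turned its sign read-based (0.012), and the cause was not tested. The others that turned were those of Sgca with DESeq2 size factors (-0.0029), total counts (-0.022) and spike-ins (-0.092), and Dag1, Sgcb and Sgcd with spike-ins (-0.058, -0.039 and -0.035), where the scaling moves every gene by 1 constant that is larger than these ratios. With spike-ins Dmd (-0.10, exact binomial test, adjusted p = 3.99e-07) and Dtna (-0.14, adjusted p = 0.00198) newly passed as lower in replicate 2. Utrn (-0.20, exact binomial test, adjusted p = 5.72e-14) still passed as lower, and Dag1 (adjusted p = 0.000416) passed as lower instead of higher. The share of all genes passing under this scaling is not given here. No paired analysis was possible because the samples form 1 group, and comparisons between the libraries cannot be recomputed with 1 left out. With 2 libraries, the spread between animals is poorly known.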
